A study of Mus musculus with 12 samples.

Results

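The 8 genes Klrd1, Klrc1, Klrc2, Klrk1, Klre1, Klri2, Cd160 and Nkg7 were taken by name, out of 32285 gene symbols, and their unique molecular identifier (UMI) counts were read in the T cells of 6 mouse tumours. They are a set of receptors, and 1 granule protein, best known from natural killer cells. Droplet libraries of 5' transcript ends, with matching receptor libraries, came from T cells sorted out of MCA205 fibrosarcomas, which grow from a chemically induced mouse cell line, and mixed at equal numbers of CD4+ and CD8+ cells. Anti-ACBP mice (n = 3) received an antibody that neutralises acyl-CoA binding protein, also called DBI, and isotype mice (n = 3) received IgG2a. All 6 were C57Bl/6 mice, and the labels give neither age nor sex. All were given 300000 MCA205 cells under the skin, oxaliplatin at 10 mg/kg on day 8 and 200 µg of anti-PD1 another 8 days later, so that chemotherapy and checkpoint blockade were common to both groups. The antibody or IgG2a was dosed at 2.5 mg/kg every other day, beginning 2 days ahead of oxaliplatin and ending 1 day ahead of anti-PD1, and tumours were taken 2 days after anti-PD1.

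Natural killer cells read the surface of other cells through paired activating and inhibitory lectin-like receptors, most of them coded in a gene cluster on mouse chromosome 6, and activated CD8 T cells take up part of the same set. Klrd1 encodes CD94, the partner chain with which the inhibitory NKG2A chain (Klrc1) and the activating NKG2C chain (Klrc2) reach the surface, where they bind the class Ib molecule Qa-1 (H2-T23). Klrk1 encodes NKG2D, an activating receptor for stress-induced ligands that signals through the adaptor Hcst and, in mice, also Tyrobp. Klre1 encodes a lectin-like chain that pairs with Klri1 or Klri2 in mouse natural killer cells, Cd160 encodes a receptor for Tnfrsf14 (HVEM), and Nkg7 encodes a membrane protein of cytotoxic granules. Klrc1 and Klrc2 are close relatives in sequence, and the sources used here do not give how reads that fit both were counted, so the split between them is uncertain.

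Of the 8 genes, 6 lie on chromosome 6, Cd160 lies on chromosome 3 and Nkg7 on chromosome 7. RefSeq start sites of the GRCm38.p6 build, the assembly behind mm10, were held for 6 of the 8; Klrd1 and Klri2 had no entry. The 250 bases before the outermost listed start site are shown for the 4 genes on which the comparisons below turn, 5′ to 3′ on the strand of the gene. They are chr6:129577963-129578212 (plus strand) for Klre1, chr6:129623865-129624114 (minus) for Klrk1, chr3:96829352-96829601 (minus) for Cd160 and chr7:43436888-43437137 (plus) for Nkg7. Capitals mark matches, on either strand (ACCACA where TGTGGT is on the other one) and without overlap, to the RUNX motif TGTGGT or the T-box motif GGTGTGA.
Klre1: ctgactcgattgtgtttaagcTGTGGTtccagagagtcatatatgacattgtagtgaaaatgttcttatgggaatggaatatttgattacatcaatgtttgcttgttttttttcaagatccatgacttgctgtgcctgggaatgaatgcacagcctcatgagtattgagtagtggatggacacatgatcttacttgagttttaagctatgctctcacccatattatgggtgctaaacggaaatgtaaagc
Klrk1: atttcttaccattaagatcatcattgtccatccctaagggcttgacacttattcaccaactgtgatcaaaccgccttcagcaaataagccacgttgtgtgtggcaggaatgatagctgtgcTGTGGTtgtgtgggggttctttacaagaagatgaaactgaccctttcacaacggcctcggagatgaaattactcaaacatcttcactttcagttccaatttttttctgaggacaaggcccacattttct
Cd160: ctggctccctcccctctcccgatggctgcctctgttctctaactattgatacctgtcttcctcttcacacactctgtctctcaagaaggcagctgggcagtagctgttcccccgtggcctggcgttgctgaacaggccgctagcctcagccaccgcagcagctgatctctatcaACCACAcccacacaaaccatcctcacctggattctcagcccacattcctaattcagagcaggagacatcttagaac
Nkg7: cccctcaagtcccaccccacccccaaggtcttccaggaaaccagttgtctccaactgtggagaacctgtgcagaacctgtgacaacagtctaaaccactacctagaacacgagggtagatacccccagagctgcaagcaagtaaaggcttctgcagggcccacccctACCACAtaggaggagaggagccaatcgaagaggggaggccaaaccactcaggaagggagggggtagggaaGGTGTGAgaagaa
The RUNX letters were found in all 6 windows available for these genes, against 14.0% of the 32851 windows of the same length in the RefSeq table. The T-box letters were found in 1 of the 6, the window of Nkg7, against 3.33% of all windows, and the ETS letters CGGAAG in 0 of the 6, against 13.6%. Such a match describes letters, not a bound site. The windows of Klre1 and of Klrc1, the latter not shown, lie inside the annotated genes (chr6:129559365-129585828 and chr6:129666015-129682852).

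The cell table that came with the matrices lists 30749 cells in 9 numbered clusters, with 4516 to 7682 UMIs in the median cell of a library and 27791735 to 65519423 UMIs per library. The CD8 class was formed from clusters 0, 3 and 6, the conventional CD4 class from clusters 1 and 7, and the regulatory class from cluster 2. Cells of the mixed clusters 4, 5 and 8 went by their own Cd4, Cd8a, Cd8b1 and Foxp3 UMIs, which gave 16945 CD8, 8902 conventional CD4 and 4706 regulatory T cells. Levels are given as CPM, the UMIs of a gene as parts of the UMIs of all genes, summed over the cells of a mouse and scaled to the same total, with receptor segment genes left out. CPM does not correct for gene length, so it is read for 1 gene across cells and not between genes. No 2 libraries shared more than 63 cell barcodes. The marker genes Cd8a plus Cd8b1 summed to 2170.4 to 2456 CPM in CD8 and 25.9 to 115 CPM in regulatory T cells. In conventional CD4 T cells they summed to 275, 444 and 298 CPM with anti-ACBP and 199, 72.0 and 402 CPM with isotype, since clusters 1 and 7 were used whole and held 1025 and 86 cells with more Cd8a plus Cd8b1 than Cd4 UMIs. Foxp3 with 4 other regulatory T cell genes summed to 4482 to 5958 CPM in regulatory and 828 to 1248 CPM in CD8 T cells. Markers of gamma-delta T cells summed to 17.8 to 111 CPM in CD8 T cells. The sum was 15.6 to 117 CPM in those with exactly 1 TRB chain and 16.5 to 94.7 CPM in those with 0. In such sums fewer cells of a kind and less RNA per cell cannot be told apart.

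Defining genes of natural killer cells were at or near 0 in these cells. Ncr1, the receptor NKp46 of natural killer cells, had at most 0.875 CPM in the CD8 T cells of any mouse and 0 UMIs in conventional CD4 and regulatory T cells of all 6. Klra8 and Klra4 were at or below 0.0620 CPM in each class, and Klrb1c lay between 1.62 and 4.82 CPM in CD8 T cells. The 10 natural killer markers summed to 1039.8, 943 and 476 CPM in CD8 T cells of anti-ACBP mice, against 320.0, 815 and 585 CPM in isotype mice; Gzma and Xcl1, which T cells also express, carried most of that sum. Hcst, the NKG2D adaptor, was present in CD8 T cells at 631, 601 and 647 CPM with anti-ACBP and 590.3, 563 and 499.9 CPM with isotype. Tyrobp, the other adaptor, had at most 10.6 CPM there. Klri1, one of the Klre1 partner chains, did not exceed 0.188 CPM in any class.

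The receptor genes were highest in the CD8 clusters or the mixed clusters 4 and 5, and lowest in the regulatory cluster 2. Averaged over the 6 mice, Klrd1 was at 939.7 ± 54.7 CPM in cluster 0 (SD, n = 6), its highest, and at 57.9 ± 22.4 CPM in cluster 2, its lowest. Cluster 2 was lowest in 6 of 6 mice and cluster 0 highest in 5 of 6, since cluster 3 was slightly above it in anti-ACBP 1. Cluster 0 or 6 was also at the top for Klrc1, Klrc2, Klrk1 and Nkg7, cluster 3 for Klre1, cluster 4 for Klri2 and cluster 5 for Cd160. For each of the 8 genes the ranges over mice of the first- and second-ranked clusters overlapped. Within a mouse, cluster 0 was above the second-ranked cluster 6 in 6 of 6 mice for Klrd1 and for Nkg7, while cluster 3 was above cluster 0 in 3 of 6 for Klre1. Cluster 2 was lowest for 7 of the genes, and Nkg7 was the exception, with 1132 CPM in cluster 2 and 1019.9 CPM in cluster 1.

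**Figure D1:**
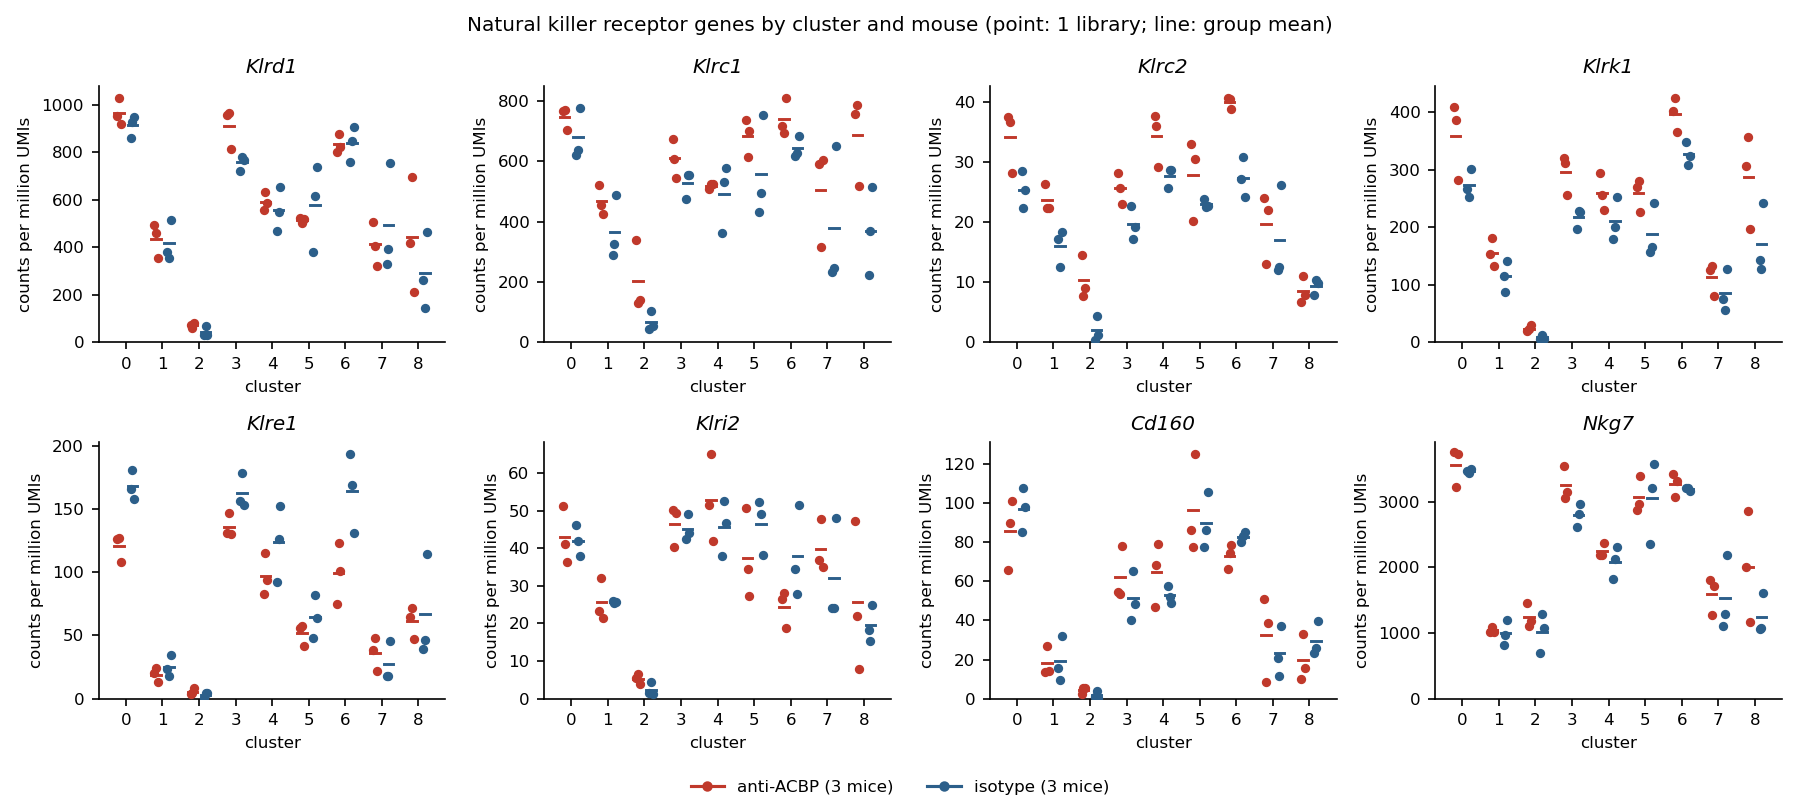
Level of each gene (vertical axis, CPM, starting at 0) in clusters 0 to 8 (horizontal axis), with 3 anti-ACBP libraries left of 3 isotype libraries in each cluster and a line at each group mean. The receptor genes have their lowest mean in cluster 2, where Klrc1 averages 135 CPM and Nkg7 stays near 1132 CPM. Klre1 in clusters 0 and 3 has each anti-ACBP library below each isotype library.

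The distance between lineages was unequal among the receptors. Conventional CD4 T cells had a median of 64.0% of the Klrc1 level of CD8 T cells in the same mouse and 65.8% of the Klrc2 level, but 15.6% of the Klre1 and 20.8% of the Cd160 level. Cd8a plus Cd8b1 stood at 12.5% of the CD8 level in the same cells, with a range of 2.93% to 19.6%. In the 6727 conventional CD4 T cells whose own UMIs matched, with more Cd4 than Cd8a plus Cd8b1, Cd160 was lower, at 1.54, 4.90 and 10.1 CPM with anti-ACBP and 8.42, 6.86 and 11.5 CPM with isotype. Klrc1 stayed at 533, 390.3 and 416 CPM with anti-ACBP and 225, 330.0 and 500.2 CPM with isotype in those cells. Cells of cluster 1 with more Cd4 than Cd8a plus Cd8b1 UMIs had 1.31, 3.60 and 3.83 CPM of Cd160 with anti-ACBP and 7.83, 7.09 and 9.73 CPM with isotype. Cells of the same cluster with more Cd8a plus Cd8b1 UMIs had 68.6, 91.0 and 58.6 CPM with anti-ACBP and 57.1, 56.2 and 106 CPM with isotype. Cd160 was thus higher in the CD8-biased cells of each of the 6 mice, without overlap. Klrc1 was less uneven, at 523, 414 and 388 CPM with anti-ACBP and 247, 332 and 470.1 CPM with isotype in the CD4-biased cells, and 662, 628 and 619.6 CPM with anti-ACBP and 537, 424 and 685 CPM with isotype in the CD8-biased ones.

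In regulatory T cells Nkg7, Klrc1 and Klrc2 stood, by the median over mice, at a larger part of the CD8 level than the other members. Their Nkg7 was at a median of 35.8% of the CD8 level of the same mouse, Klrc1 at 18.4% and Klrc2 at 20.5%. The median was 7.89% for Klrd1, 5.77% for Klrk1, 3.86% for Cd160 and 3.03% for Klre1. The order did not hold in each mouse, since in isotype 1 Klrc2 was below Klrd1 (4.28%), Klri2 (3.12%) and Klrk1 (2.93%). The medians of Klrc1 and Klrc2 also pool groups that did not overlap. Klrc1 was at 19.6% or more with anti-ACBP and 17.2% or less with isotype. Klrc2 was at 22.2% or more with anti-ACBP and 18.8% or less with isotype. Cd8a plus Cd8b1, which regulatory T cells should lack, stood at 2.70% of the CD8 level, with a range of 1.05% to 5.07%. Barcodes outside the cell table held Klrc1 above its level in regulatory T cells of each library. Their Nkg7 was above the cluster 2 level in anti-ACBP 1 and isotype 1 and below it in the other libraries. The part of such RNA in these levels was not tested. The ratio of Klrc1 to Klrd1 UMIs was 1.34 to 3.99 in regulatory T cells and 0.738 to 0.821 in CD8 T cells of the same libraries, without overlap. Klrg1, a related receptor known from mature natural killer and effector cells, ran the other way, with 431 to 527 CPM in regulatory and 5.39 to 17.4 CPM in CD8 T cells.

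To count receptors per cell, each cell was thinned to 2000 UMIs, which left out 472 CD8, 368 conventional CD4 and 164 regulatory T cells. Of the 7 receptors (without Nkg7), a CD8 T cell showed 2.29 on average, a conventional CD4 T cell 1.10 and a regulatory T cell 0.239. At least 3 were seen in 44.7% of cluster 0, 44.3% of cluster 6, 11.4% of cluster 1 and 0.789% of cluster 2 cells. Within CD8 T cells Klrc1 was seen in 70.5% of cells with a Klrd1 UMI and 61.2% of cells without, and this order held in 6 of 6 mice. Klrc2, the other partner of CD94, was seen in 5.71% of cells with a Klrd1 UMI and 5.51% of cells without, and was higher in 3 of 6. Cd160 was seen in 10.6% of cells with a Klrc2 UMI and 13.3% of cells without, and the first share was the lower in 6 of 6 mice. These shares are descriptions, since cells of a mouse are not replicates.

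Across the 49 sums of at least 50 cells of a cluster and a mouse, which share libraries and clusters, the gene most like each member was found on the log2(CPM + 1) scale among genes with a mean of at least 20 CPM. Klrd1 ran most like Cd96 (Pearson r = 0.97, a description), Klrk1 like Klrd1 (0.96), Klrc1 like Klrc2 (0.94), Klre1 like Efhd2 (0.94), Cd160 like Slamf7 (0.94), Klri2 like Ybx3 (0.93) and Nkg7 like the perforin gene Prf1 (0.91). Among members, the lowest r was 0.61, between Klri2 and Nkg7.

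In CD8 T cells of anti-ACBP mice the partner chain gene Klre1 fell, and the other 7 genes did not pass the test. Klre1 had 115, 129.8 and 108 CPM in anti-ACBP mice and 153, 175 and 155 CPM in isotype mice. The highest anti-ACBP mouse lay below the lowest isotype mouse. The mean was 118 ± 11.0 CPM with anti-ACBP and 161 ± 12.3 CPM with isotype (SD, n = 3 each), a log2 fold change of -0.48 ± 0.09 (SE) with an adjusted p of 0.0444 in edgeR. That is 1 of 8 members called, where 0.929% of 11736 tested genes were called. The share of CD8 T cells with a Klre1 UMI at 2000 UMIs was 18.4, 19.3 and 16.5% with anti-ACBP and 22.8, 25.9 and 23.2% with isotype. In regulatory T cells, where the gene was lowest, that share was at most 0.849%. Without thinning the CD8 shares overlapped, at 44.0, 49.8 and 43.2% with anti-ACBP and 52.6, 50.1 and 46.9% with isotype, in cells of 5140 to 8308 median UMIs.

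The call for Klre1 sits close to the threshold. It was lost, with the direction kept, without anti-ACBP 1 (edgeR adjusted p = 0.133), anti-ACBP 2 (0.161), anti-ACBP 3 (0.113), isotype 2 (0.0711) or isotype 3 (0.177), in cells with exactly 1 TRB chain (0.0632) and outside the 10 largest clones of each mouse (0.0886). Outside those clones the levels still did not overlap, at 117, 129.7 and 102 CPM with anti-ACBP and 150.2, 167 and 146 CPM with isotype. The cycling markers Mki67 plus Top2a moved with the groups, at 324, 273 and 262 CPM in CD8 T cells with anti-ACBP and 378, 477 and 505 CPM with isotype; their part in the Klre1 result was not tested.

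The activating receptor genes Klrk1 and Klrc2 leaned the other way in CD8 T cells without passing. Klrk1 had 365, 358 and 278 CPM with anti-ACBP and 246, 254 and 280.3 CPM with isotype, so that anti-ACBP 3 lay within the isotype range (log2 fold change 0.33 ± 0.11, edgeR adjusted p = 0.177). Klrc2 had 35.0, 35.0 and 29.0 CPM with anti-ACBP and 27.9, 24.3 and 25.5 CPM with isotype, without overlap (0.32 ± 0.11, edgeR adjusted p = 0.176). Klrd1, the CD94 gene, had 858, 925 and 831 CPM with anti-ACBP and 751, 831 and 830.2 CPM with isotype, which all but touched. Klrd1, Klrc2 and Klre1 were the 3 members whose groups did not overlap, where 24.4% of all tested genes did not. In CD8 T cells with exactly 1 TRB chain Klrd1 and Klrc2 overlapped, and Klre1 did not. Klrc2 had 34.1, 32.8 and 27.4 CPM in those cells with anti-ACBP and 28.7, 24.0 and 24.5 CPM with isotype. For Klrd1 (log2 fold change 0.09 ± 0.07), Klrc1 (0.12 ± 0.08), Klri2 (-0.06 ± 0.11), Cd160 (-0.06 ± 0.15) and Nkg7 (0.07 ± 0.06) the edgeR adjusted p ran from 0.47 (Klrc1) to 0.87 (Cd160).

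**Figure D2:**
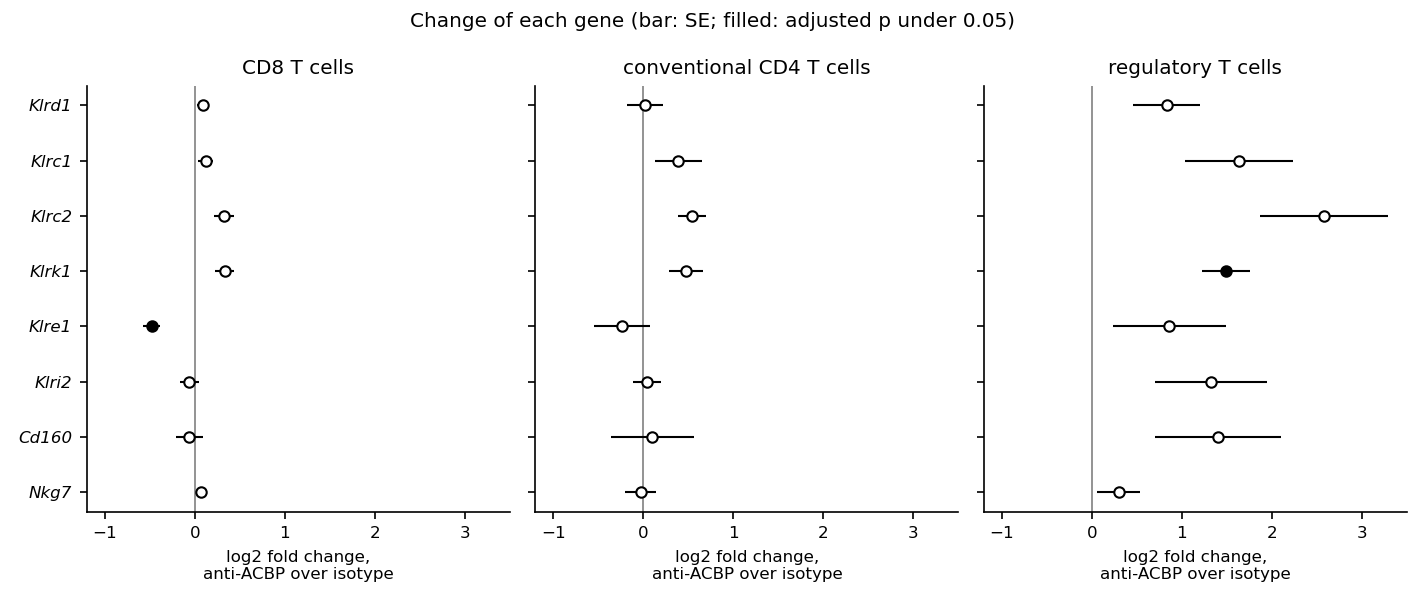
Log2 fold change of each gene (horizontal axis, anti-ACBP over isotype) with its SE in 3 classes of T cells, filled where the edgeR adjusted p was under 0.05. Klre1 in CD8 T cells (-0.48) and Klrk1 in regulatory T cells (1.49) are filled, and in regulatory T cells all 8 points lie above 0.

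Within clusters, Klre1 fell in cluster 0 and in cluster 6. In cluster 0, where 1.19% of genes were called, it had 126, 127 and 108 CPM with anti-ACBP and 166, 180.5 and 158 CPM with isotype (log2 fold change -0.51 ± 0.09, edgeR adjusted p = 0.0346). In cluster 6, where 2.55% were, it had 74.6, 123 and 101 CPM with anti-ACBP and 193, 169 and 131 CPM with isotype (-0.75 ± 0.18, edgeR adjusted p = 0.0416). Both sets of libraries stood apart. In the 6 fitted clusters other than 2 and 7 its fold change was negative, from -0.75 to -0.29, and in clusters 7 and 2 it was 0.67 ± 0.37 and 0.95 ± 0.64, neither past the test. Over the 8 fitted clusters, 3 member tests passed, where 1.23% of all tests did; cluster 8 was not fitted because 2 anti-ACBP libraries had 19 and 14 cells in it.

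The call in cluster 6 was lost with the replicate number as a block (edgeR adjusted p = 0.0645), and in both clusters 0 (0.117) and 6 (0.118) outside the 10 largest clones. Leaving out a library ended it in cluster 0 without anti-ACBP 1 (edgeR adjusted p = 0.0663), anti-ACBP 2 (0.136), anti-ACBP 3 (0.0784) or isotype 3 (0.177), and in cluster 6 without anti-ACBP 1 (0.162), anti-ACBP 3 (0.102), isotype 1 (0.0984) or isotype 2 (0.184). In cells with exactly 1 TRB chain it was lost in cluster 6 (0.0757).

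Klrk1, Klrc1, Klrc2 and Nkg7 had positive fold changes in all 8 fitted clusters. For Nkg7 these ran from 0.01 to 0.29, with a median of 0.07, and for Klrc1 from 0.05 to 1.62, with no cluster past the test for either. For Klrk1 these ran from 0.28 to 1.49, with cluster 2 past the test (edgeR adjusted p = 0.0425, where 2.30% of genes were called higher), and for Klrc2 from 0.30 to 2.64, with no cluster past it (lowest edgeR adjusted p 0.104). The same 6 mice are behind each cluster, so these are not 8 independent observations. The Klrk1 call in cluster 2 was lost without anti-ACBP 1 (edgeR adjusted p = 0.0842), anti-ACBP 2 (0.117), anti-ACBP 3 (0.13), isotype 1 (0.112) or isotype 3 (0.132) and in cells with exactly 1 TRB chain (0.167).

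**Figure D3:**
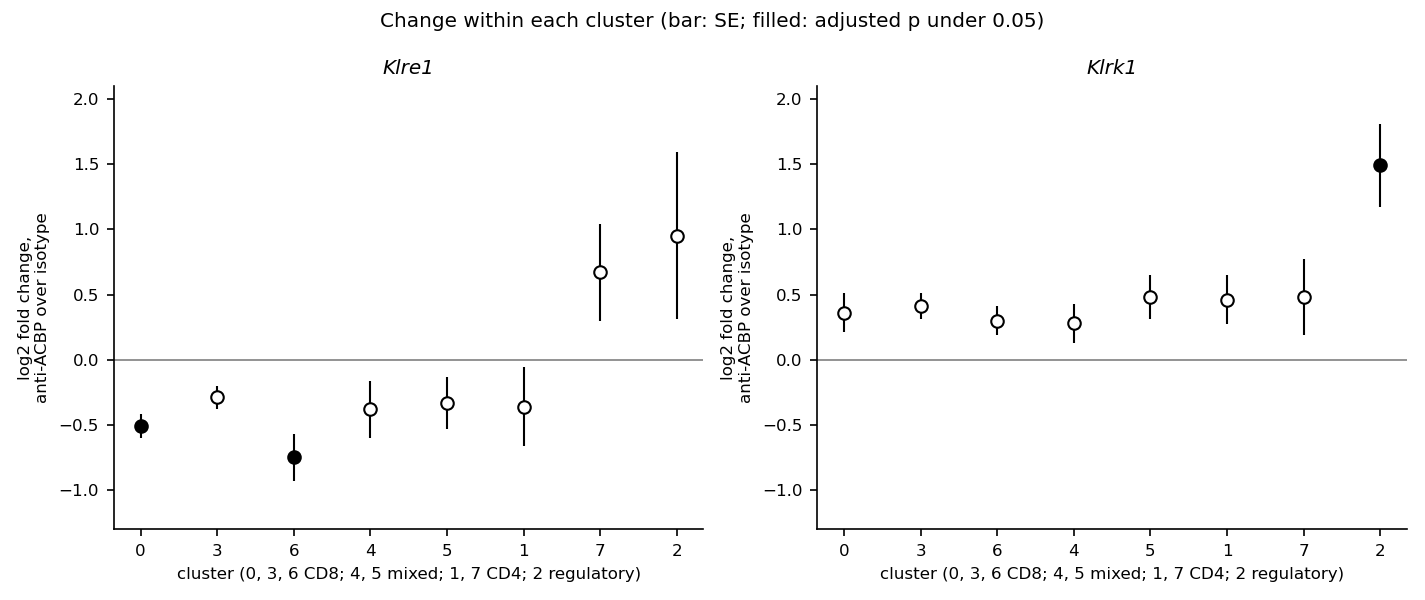
Log2 fold change (vertical axis, anti-ACBP over isotype) of Klre1 and Klrk1 with its SE in 8 clusters ordered by lineage (horizontal axis), filled where the edgeR adjusted p was under 0.05. Klre1 lies below 0 in clusters 0, 3, 6, 4, 5 and 1, and Klrk1 above 0 in all 8, with its highest value, 1.49, in cluster 2.

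In conventional CD4 T cells 0 of 8 members passed in edgeR, where 0.329% of 10938 genes did, and DESeq2 also called 0; 2 members, Klrc2 and Klrk1, had an unadjusted p under 0.05, as did 15.1% of genes. Klrc2 had 26.3, 19.3 and 21.1 CPM with anti-ACBP and 14.7, 14.3 and 18.8 CPM with isotype (log2 fold change 0.54 ± 0.16, edgeR adjusted p = 0.171). It was the 1 member without overlap, where 21.0% of genes had none. In the conventional CD4 T cells whose own UMIs matched, Klrc2 overlapped. It had 24.1, 15.6 and 19.0 CPM there with anti-ACBP and 12.6, 14.4 and 18.0 CPM with isotype. Klrk1 had 140.3, 163 and 122 CPM with anti-ACBP and 101, 80.5 and 131 CPM with isotype, which overlap (0.47 ± 0.19, edgeR adjusted p = 0.307). Klre1 had 21.3, 25.2 and 13.8 CPM with anti-ACBP and 19.0, 19.9 and 35.5 CPM with isotype, and the change was within its error (-0.24 ± 0.31).

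In regulatory T cells of anti-ACBP mice the NKG2D gene Klrk1 rose at a low level, and the CD8 genes were higher in the same cells. It had 22.0, 24.4 and 31.0 CPM in anti-ACBP mice and 7.19, 14.0 and 6.53 CPM in isotype mice. All 3 anti-ACBP mice lay above all 3 isotype mice. The mean was 25.8 ± 4.68 CPM with anti-ACBP and 9.25 ± 4.16 CPM with isotype (SD, n = 3 each), a log2 fold change of 1.49 ± 0.27 with an adjusted p of 0.0262 in edgeR. Klrk1 was the 1 of 8 members called, where 3.45% of 10422 genes were. All 8 members had a positive fold change, with a median of 1.36, against 0.00 over all tested genes. The share of regulatory T cells with a Klrk1 UMI at 2000 UMIs was 2.73, 1.91 and 3.37% with anti-ACBP and 0.872, 2.14 and 0.841% with isotype, so that isotype 2 exceeded anti-ACBP 2. Without thinning it was 8.94, 8.37 and 10.5% with anti-ACBP and 4.94, 5.35 and 1.55% with isotype, without overlap. No share from cells known to lack the gene stood beside these, so they were not read as a count of expressing cells. Barcodes outside the cell table held Klrk1 at 203, 127 and 60.3 CPM in anti-ACBP libraries and 96.1, 56.3 and 50.3 CPM in isotype libraries, above its level in regulatory T cells of each library. The part of such RNA in the Klrk1 result was not tested.

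The NKG2A and NKG2C genes separated the groups in regulatory T cells but missed the test. Klrc1 had 346, 136 and 139.6 CPM with anti-ACBP and 42.9, 107 and 58.1 CPM with isotype, and anti-ACBP 1 stood far above the other 2 mice of its group (log2 fold change 1.63 ± 0.60, edgeR adjusted p = 0.232). Klrc2 had 15.3, 7.77 and 8.57 CPM with anti-ACBP and 0.558, 4.56 and 1.45 CPM with isotype (2.58 ± 0.71, edgeR adjusted p = 0.107). Klrc1, Klrc2 and Klrk1 were the 3 members without overlap, where 26.8% of genes had none. Outside the 10 largest clones Klrc1 still did not overlap, at 282, 132 and 132 CPM with anti-ACBP and 44.0, 104 and 56.7 CPM with isotype. At 2000 UMIs, 37.1, 16.3 and 16.3% of regulatory T cells had a Klrc1 UMI with anti-ACBP and 6.98, 14.4 and 8.53% with isotype, and without thinning 53.1, 28.5 and 30.2% with anti-ACBP and 19.8, 27.5 and 16.9% with isotype. Barcodes outside the cell table held more Klrc1 in each library, with the highest value, 529 CPM, in anti-ACBP 1. Their Klrc2 was at 38.5, 22.9 and 4.68 CPM in anti-ACBP and 17.3, 6.43 and 5.39 CPM in isotype libraries. That was above the level in regulatory T cells except in anti-ACBP 3. The part of such RNA in the Klrc1 and Klrc2 results was not tested.

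CD8 genes moved in the same direction in these cells. Cd8a plus Cd8b1 had 67.8, 115 and 114 CPM in regulatory T cells of anti-ACBP mice and 38.0, 25.9 and 52.1 CPM in isotype mice, without overlap. In the 4072 regulatory T cells with no UMI of either gene, Klrk1 had 15.0, 13.3 and 27.3 CPM with anti-ACBP and 4.84, 9.99 and 1.34 CPM with isotype, still without overlap. The fold change there was 1.71 on the log2 scale and the call was lost (edgeR adjusted p = 0.183), an alternative chosen after seeing the data. In the 3282 regulatory T cells with more Cd4 UMIs it had 18.7, 15.9 and 31.7 CPM with anti-ACBP and 5.36, 10.8 and 3.01 CPM with isotype, without overlap and with the call lost (1.74, edgeR adjusted p = 0.08). In the 1196 with an excess of neither lineage's UMIs it had 4.74, 3.21 and 8.24 CPM with anti-ACBP and 2.95, 14.4 and 0 CPM with isotype, and in the 228 with more Cd8a plus Cd8b1 UMIs 90.3, 111 and 58.5 CPM with anti-ACBP and 45.8, 103 and 58.5 CPM with isotype. The groups overlapped in both of these smaller sets, and in the set with neither excess isotype 2 was the highest of the 6 libraries. In the cells with no Cd8a or Cd8b1 UMI Klrc1 had 337, 136 and 141 CPM with anti-ACBP and 35.6, 106 and 43.6 CPM with isotype. Mki67 plus Top2a stood at 302, 246 and 218 CPM in regulatory T cells with anti-ACBP and 647, 339 and 626 CPM with isotype; their part was not tested.

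**Figure D4:**
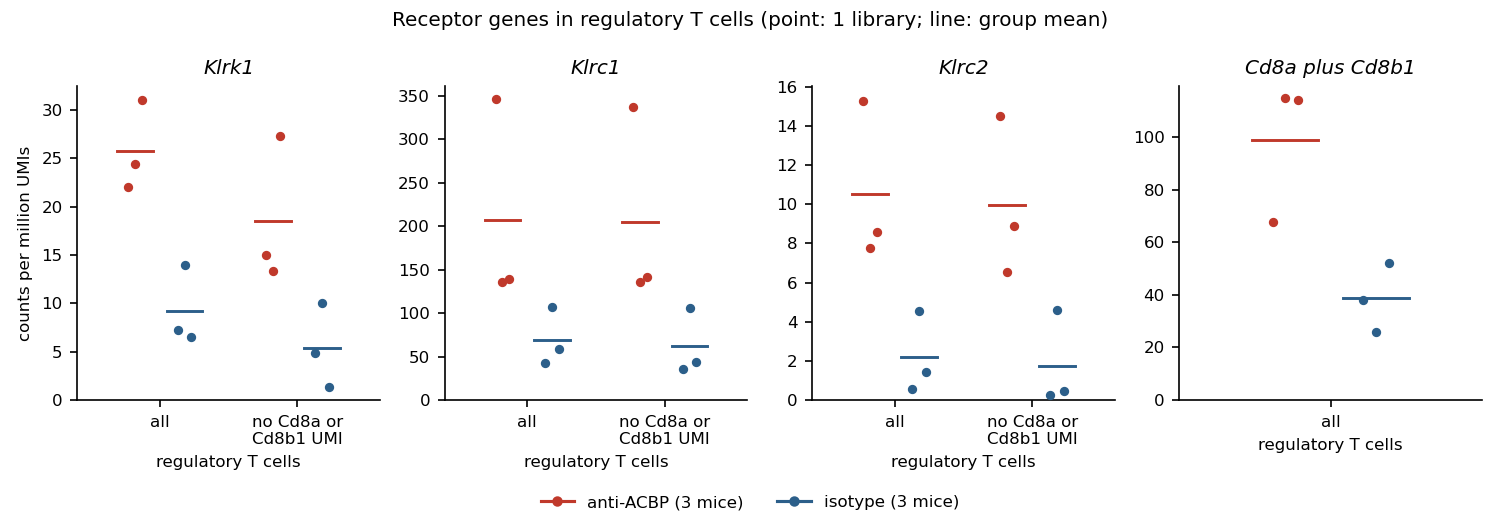
Level (vertical axis, CPM, starting at 0) of Klrk1, Klrc1 and Klrc2 in all regulatory T cells and in those with no Cd8a or Cd8b1 UMI, and of Cd8a plus Cd8b1 in all of them, with 3 anti-ACBP libraries left of 3 isotype libraries and a line at each group mean. The anti-ACBP points lie above the isotype points in each panel, and Klrc1 in anti-ACBP 1 reaches 346 CPM.

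The Klrk1 call in regulatory T cells was also lost without anti-ACBP 1 (edgeR adjusted p = 0.063), anti-ACBP 2 (0.0943), anti-ACBP 3 (0.0975), isotype 1 (0.064) or isotype 3 (0.0886), and in cells with exactly 1 TRB chain (0.189). Without isotype 2, the isotype mouse with the highest levels, 5 members passed: Klrd1 (log2 fold change 1.29), Klrc2 (3.68), Klrk1, Klri2 (2.25) and Cd160 (2.32). The share of all genes called in that fit was not taken, so the count was not read as a result about these members. Whether the change differed between regulatory and CD8 T cells was tested as an interaction: 0 of 8 members passed in edgeR, where 0.468% of 12171 genes did, and 0 in DESeq2. There 3 members had an unadjusted p under 0.05, as did 9.59% of genes, and Klrk1 changed by 1.16 ± 0.38 more on the log2 scale in regulatory T cells (edgeR adjusted p = 0.44). Without isotype 2 the interaction passed for 5 members, Klrk1 among them (edgeR adjusted p = 0.0184), again with no share of all genes beside it.

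Expanded CD8 clones carried more Klrd1 and Nkg7 and less Cd160 than clones seen once. Among CD8 T cells with exactly 1 TRB chain, 10131 cells of clones of at least 10 cells were set against 590 cells of clones with 1 cell, 73 to 134 per mouse, with the mouse as a block. Klrd1 averaged 895 ± 69.3 CPM in expanded and 713 ± 111 CPM in single-cell clones (SD, n = 6 mice), and Nkg7 averaged 3353 ± 177 CPM in expanded and 2676 ± 412 CPM in single-cell clones. Both were higher in the expanded clones of 6 of 6 mice, with log2 fold changes of 0.34 ± 0.06 (edgeR adjusted p = 0.000505) and 0.35 ± 0.06 (0.000447). Cd160 averaged 79.5 ± 12.5 CPM in expanded and 118 ± 36.9 CPM in single-cell clones and was lower in the expanded clones of 5 of 6 mice (-0.55 ± 0.11, edgeR adjusted p = 0.00161). These 3 of 8 members compare with 4.61% of 10078 genes called.

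By mouse, Cd160 had 58.8, 77.5 and 87.0 CPM in expanded clones of anti-ACBP mice against 92.1, 72.3 and 119 CPM in their single-cell clones, so that anti-ACBP 2 went the other way. In isotype mice it had 80.2, 96.4 and 77.1 CPM in expanded against 159, 164 and 103 CPM in single-cell clones. The call on Cd160 was lost when cluster 0 alone was used (-0.36, edgeR adjusted p = 0.0972), while Klrd1 and Nkg7 passed there. All 3 calls missed the threshold when mice were not a block, with an edgeR adjusted p of 0.0653 for Klrd1, 0.0516 for Nkg7 and 0.157 for Cd160. Klre1 (0.24 ± 0.09), Klrk1 (0.17 ± 0.08), Klrc1 (0.20 ± 0.16), Klri2 (0.19 ± 0.14) and Klrc2 (-0.05 ± 0.15) did not pass.

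**Figure D5:**
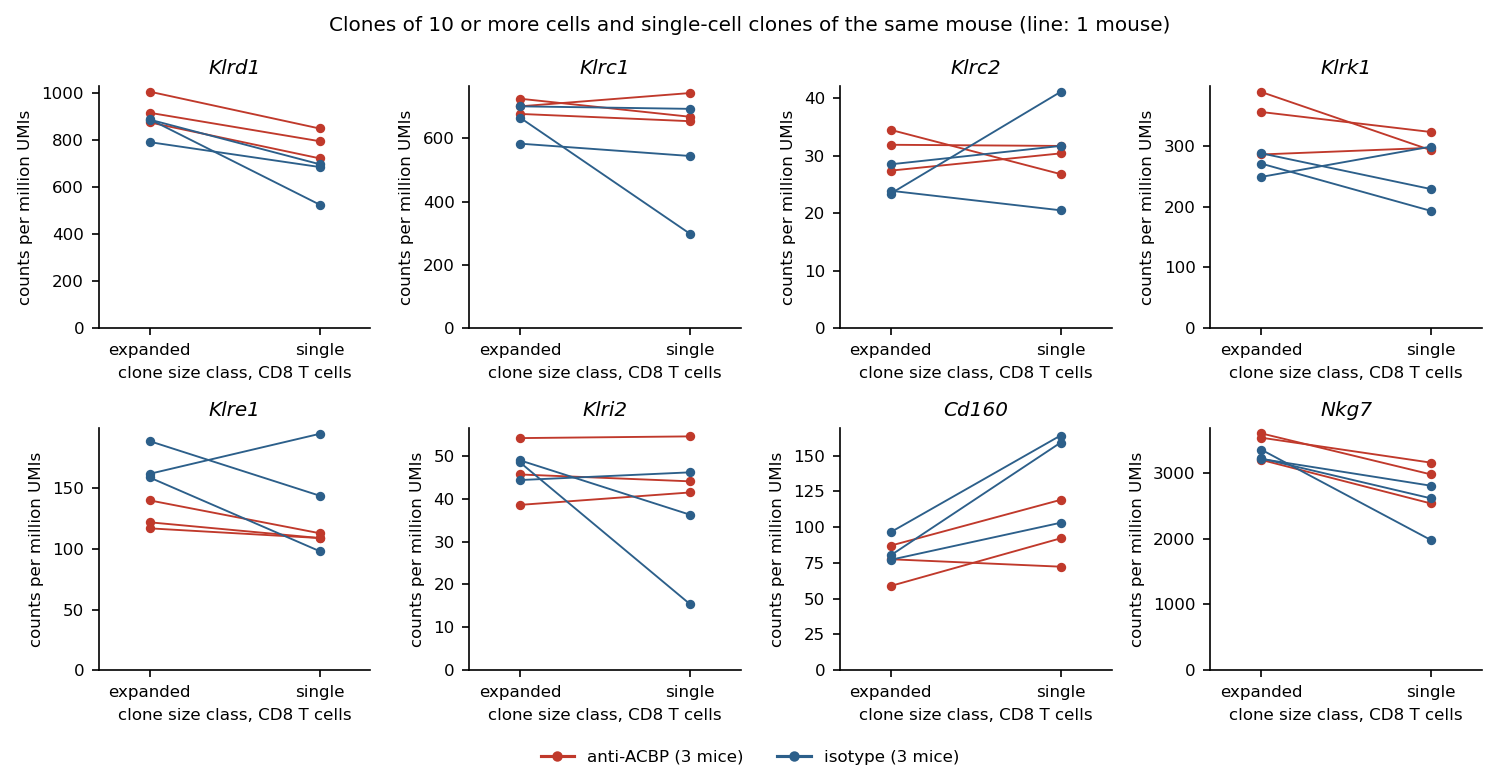
Level of each gene (vertical axis, CPM, starting at 0) in CD8 T cells of clones of at least 10 cells and of single-cell clones, with a line joining the values of 1 mouse. All 6 lines descend to the right for Klrd1 and Nkg7, and 5 of 6 ascend for Cd160.

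Other genes of the system were read from lists. In CD8 T cells, of 15 tested adaptor and signalling genes 1 fell and 0 rose: Fcer1g, an adaptor of activating receptors, averaged 53.6 ± 7.44 CPM with anti-ACBP and 95.7 ± 12.7 CPM with isotype (log2 fold change -0.86 ± 0.13, edgeR adjusted p = 0.0365). Of 16 tested transcription factors 2 fell: Nfil3, needed for natural killer cell development, at 68.0 ± 3.08 CPM with anti-ACBP and 107 ± 7.06 CPM with isotype (-0.69 ± 0.07, edgeR adjusted p = 0.00734), and Prdm1, which encodes the effector regulator Blimp-1, at 21.3 ± 3.12 CPM with anti-ACBP and 54.4 ± 11.1 CPM with isotype (-1.37 ± 0.15, edgeR adjusted p = 0.0128). Among 22 other natural killer receptors, 8 ligands and partners and 24 cytotoxic granule genes 0 passed. Of all genes tested in CD8 T cells, 0.929% were called. List medians lay between -0.20 (transcription factors) and 0.16 (granule genes) on the log2 scale, against a median of -0.00 over all tested genes.

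In conventional CD4 T cells, where 0.329% of genes were called, 1 of 24 granule genes and 0 genes of the other 4 lists passed. It was Fasl, the ligand of the death receptor Fas, which rose (log2 fold change 0.48 ± 0.08, edgeR adjusted p = 0.0493). In regulatory T cells, where 3.45% of all tested genes were called, 3 of 21 granule genes rose: Serpinb9, an inhibitor of granzyme B (1.03 ± 0.15, edgeR adjusted p = 0.0159), the granule proteoglycan gene Srgn (0.42 ± 0.08, edgeR adjusted p = 0.0211) and the granzyme gene Gzmc (2.03 ± 0.35, edgeR adjusted p = 0.0432). Of 12 other natural killer receptors 2 rose, the inhibitory receptor genes Tigit (0.47 ± 0.10, edgeR adjusted p = 0.0323) and Havcr2 (0.52 ± 0.12, edgeR adjusted p = 0.0455). Of 15 transcription factors 2 rose, Tbx21, which encodes T-bet (0.74 ± 0.12, edgeR adjusted p = 0.0131), and Stat4, which signals below the interleukin 12 receptor (0.52 ± 0.12, edgeR adjusted p = 0.0386). Cd247, the CD3 zeta chain (0.33), and H2-D1, a class I ligand gene (0.29), also rose, 1 of 12 adaptors and 1 of 8 ligands. The Qa-1 gene H2-T23 had 1019.6, 974 and 1086 CPM in regulatory T cells with anti-ACBP and 886, 959 and 923 CPM with isotype, which did not overlap, as for 26.8% of tested genes, and did not pass.

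Between expanded and single-cell CD8 clones, 4 of 20 other natural killer receptors were lower in expanded clones and 0 higher, where 4.61% of all tested genes were called. Slamf6, found on stem-like T cells, averaged 10.7 ± 3.41 CPM in expanded and 23.7 ± 9.90 CPM in single-cell clones, and its relative Ly9 averaged 27.0 ± 2.85 CPM in expanded and 40.7 ± 10.8 CPM in single-cell clones (edgeR adjusted p = 0.000378 for Slamf6 and 0.0269 for Ly9). The Ly49 genes Klra6 and Klra7 averaged 0.0186 and 0.421 CPM in expanded clones and 18.0 ± 23.5 and 28.7 ± 35.6 CPM in single-cell clones, where the SD exceeds the mean and reads may be shared among members of this gene family. Of 16 transcription factors 2 were higher and 3 lower in expanded clones. Among the 4 with the smallest p, Tcf7, the stem-like T cell factor, averaged 9.01 ± 2.92 CPM in expanded and 78.1 ± 32.1 CPM in single-cell clones (edgeR adjusted p = 9.48e-06), and Id2, an effector factor, averaged 741 ± 121 CPM in expanded and 528 ± 147 CPM in single-cell clones (edgeR adjusted p = 0.00296). Stat4, which rose in regulatory T cells above, averaged 133 ± 13.0 CPM in expanded and 180.3 ± 15.1 CPM in single-cell clones (-0.41, edgeR adjusted p = 0.000447). Ikzf2, which encodes Helios, averaged 60.4 ± 15.8 CPM in expanded and 116 ± 51.3 CPM in single-cell clones (-0.89, edgeR adjusted p = 0.0365).

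Of 24 granule genes 3 were higher in expanded clones. Serpinb9 averaged 362 ± 73.1 CPM in expanded and 279 ± 68.7 CPM in single-cell clones (0.37, edgeR adjusted p = 0.00214). The granzyme gene Gzmf averaged 2704 ± 669 CPM in expanded and 879 ± 437 CPM in single-cell clones (edgeR adjusted p = 0.0236), and Gzmg 87.4 ± 41.3 CPM in expanded and 18.1 ± 22.3 CPM in single-cell clones (edgeR adjusted p = 0.0393). Of 15 adaptor and signalling genes 2 were higher, Sh2d2a, a T cell adaptor (0.32, edgeR adjusted p = 0.000665), and Zap70, the kinase that binds the CD3 zeta chain (0.22, edgeR adjusted p = 0.033). Of 7 ligands and partners 1 was lower, the class Ib gene H2-Q7 (-0.21, edgeR adjusted p = 0.0191).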

How the data were processed

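Single-cell expression and receptor libraries of sorted tumour T cells from 6 mice were used. The authors deposited raw UMI counts of each gene in each barcode, with a table of cells and their cluster numbers and a table of receptor contigs, per the file headers. The submitters' processing notes name Cell Ranger 7.0.0, Seurat and the build mm10, with no role for each; the sources used here do not give how doublets and background RNA were handled, and no doublet caller was run. The UMI total of each of the 30749 listed cells equalled the table's own, and the other barcodes of the 69249 were left out. Clusters carry no names, so classes were read from markers; 196 cells of mixed clusters had no class, and 639 receptor and immunoglobulin segment genes were left out of totals and tests. The members, gene lists, markers and tests were chosen with earlier results of these data known.

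Counts were summed per mouse and class or cluster (in clusters, libraries with at least 20 cells, and at least 2 such libraries a group) and tested, two-sided, with edgeR 4.0.16 (robust quasi-likelihood test with TMM scaling and the filterByExpr filter on low counts) and Benjamini-Hochberg adjustment over all tested genes at 0.05. Named genes are the 8 members and, of each list, up to 4 that passed with the smallest p. Hcst, Tyrobp, Klri1, H2-T23 and Klrg1, partners or relatives of the members, were named after their values were seen. SE is the size of the log2 fold change divided by the square root of F. The clone comparison and the interaction had the mouse as a block. Alternatives were no filter, DESeq2 1.42.0, the replicate number as a block, each library left out, cells with 1 TRB chain, cells outside the 10 largest clones, cells whose own UMIs match their lineage and other clone sizes. The steps were checked on simulated counts, where 96.5 to 100.0% of genes changed by 1 on the log2 scale were recovered. That check left out genes under 10 CPM and gave all genes 1 common dispersion. It does not cover the members at lower levels in regulatory T cells.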

Additional observations from a re-analysis of the deposited data

How the results depend on the processing

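The counts of members called depend on the setting. Shares of all genes called were taken for the main fits only. The counts under other settings cannot be set against such a share and were not read as results about these members. In CD8 T cells 1 member was called, and 0 in cells with exactly 1 TRB chain or outside the 10 largest clones. In regulatory T cells 1 was called, 2 with DESeq2 (Klrc2 added), and 0 in cells with 1 TRB chain, in cells whose own UMIs match the lineage and, in an alternative chosen after seeing the data, in cells with no Cd8a or Cd8b1 UMI. Over the clusters 3 were called, 8 with no filter on low counts and 1 in cells with 1 TRB chain. Between expanded and single-cell clones 3 were called, and 0 when the mouse was not a block. Leaving out each library in turn gave 0 to 1 in CD8, 0 to 5 in regulatory T cells, 0 to 6 over the clusters, 0 to 5 for the interaction and 3 to 4 for clones; in conventional CD4 T cells each of these settings gave 0. The labels do not say that the replicate numbers pair the mice. Same-numbered libraries deviated together with r of 0.22, 0.03 and -0.15 in CD8 T cells, which cannot show whether they shared a batch. With the replicate number as a block the calls numbered 1 for CD8 and 1 for regulatory T cells, 0 for conventional CD4 T cells and 3 over the clusters, Klrk1 in cluster 3 in place of Klre1 in cluster 6. Of 511 recomputed changes of single members, 461 kept their side of the threshold, 38 lost a call and 12 gained one. Of the changes called in either fit, 0 turned round. Changes called in neither fit were counted as kept whatever their direction, and some did turn round. With a library left out, Klri2 ran from -0.17 to 0.04 and Cd160 from -0.21 to 0.08 in CD8 T cells. Low levels limit the regulatory T cells, where Klrc2, Klre1, Klri2 and Cd160 averaged 6.26, 4.31, 3.79 and 3.07 CPM in cluster 2.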

Other observations

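Each library had 4953 to 8146 barcodes outside the cell table, and they also held these transcripts. Klrc1 had 529, 310.4 and 199.7 CPM there in anti-ACBP libraries, against 269.6, 176 and 146 CPM in isotype libraries, and Nkg7 had 1508, 1001 and 615 CPM in anti-ACBP against 959, 662 and 491 CPM in isotype libraries. Klrk1 had 203, 127 and 60.3 CPM in anti-ACBP against 96.1, 56.3 and 50.3 CPM in isotype libraries. Their median barcode held 582 to 995 UMIs. The groups overlapped for these genes.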
